A study of Ovis aries with 16 samples.

Results

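The subject is the 7 subunits of respiratory complex I that the mitochondrial genome encodes, measured as messenger RNA in the heart muscle (myocardium) of adult female sheep. The members were chosen by identifier: ENSOARG00000000006 (ND1), ENSOARG00000000010 (ND2), ENSOARG00000000025 (ND3), ENSOARG00000000027 (ND4L), ENSOARG00000000028 (ND4), ENSOARG00000000032 (ND5) and ENSOARG00000000033 (ND6). They are 7 of the 27054 features in the table, and 7 of the 37 mitochondrial identifiers that open its list. The table holds identifiers only. The symbols come from the definition of the set, which takes the identifiers in the order of the genes along the Oar_v3.1 mitochondrial genome, and no value in the table can check them.

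Each of 4 groups held 4 animals, drawn at random from a larger group. Control animals were daughters of ewes given corn oil alone and ate a control diet. BPA animals were daughters of ewes injected daily under the skin with 0.5 mg/kg of bisphenol A, a plasticiser with oestrogenic activity, in corn oil from day 30 to day 90 of gestation, and ate the control diet. The obese animals had vehicle-treated mothers and were overfed from 14 weeks of age, and the ObBPA animals had BPA-treated mothers and were overfed. All animals received prostaglandin F2α to synchronise their cycles, and hearts were taken at 21 months of age in the presumed follicular phase. The myocardium was a bulk sample, so fewer cardiac muscle cells and less RNA per cell cannot be told apart. The region of the heart is not given in the sources used here, and heart muscle markers were not checked because the identifiers could not be matched to symbols.

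Complex I, NADH:ubiquinone oxidoreductase, takes electrons from NADH into the respiratory chain and pumps protons across the inner mitochondrial membrane. Its hydrophobic core is made of ND1 to ND6 and ND4L. The other subunits are encoded in the nucleus. ND2, ND4 and ND5 are the antiporter-like proton-pumping subunits, ND1 helps form the quinone channel, and ND3, ND4L and ND6 are small membrane subunits near it. The messages are cut from long transcripts of both strands of the mitochondrial DNA. ND6 is the one subunit encoded on the light strand, and it lies beside ND5. ND4L and ND4 are neighbours whose reading frames overlap and share a messenger RNA. The heart is rich in mitochondria, and mitochondrial messages are known to be abundant there. The sources used here do not say that strand was used in counting. Fragments of ND6 and of the opposite strand at the same place, and fragments of the ND4L and ND4 overlap, therefore cannot be told apart.

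Levels are given as FPKM, fragments scaled by feature length and by the mapped fragments of the library, as the authors deposited them. The libraries of each group are numbered 0 to 3 in the labels, and nothing there says what a number marks. The summed FPKM of a library ran from 2611770 to 5455700, of which the 37 mitochondrial identifiers took 62.6% to 77.0% and the 7 complex I subunits 1.73% to 3.93%. The 4 libraries numbered 0 (1 per group) stood apart, with 3150 of the 13251 features tested called between them and the 12 others. Control library 1 stood apart in the order of the subunits and in the ratios between them. It also had the lowest relative depth of the 12 libraries numbered 1 to 3, 0.539 of control library 3, and the highest summed FPKM of all 16. The part of depth in its values was not tested. Values without these libraries are given beside a number of the results.

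Of the 7 subunits, 5 were among the 45 features with the highest mean FPKM of the 13251 tested, and ND4L and ND3 were listed far lower. Mean FPKM over the 16 libraries was 31458 ± 5541 for ND4, 25729 ± 4339 for ND1, 15711 ± 3435 for ND6, 9174 ± 1535 for ND5 and 6288 ± 1327 for ND2 (SD, n = 16). ND4L followed with 300.3 ± 75.4 and ND3 with 0.830 ± 0.555 (SD, n = 16). By mean FPKM they ranked 13 (ND4), 17 (ND1), 23 (ND6), 34 (ND5), 45 (ND2), 421 (ND4L) and 13144 (ND3). ND3 thus lay near the bottom of the tested features. Low values were also found among the other mitochondrial identifiers: of the other 30, 5 were listed at 0 in all libraries and 2 more had a mean above 0 and under 40 FPKM. FPKM is per length, and the correction for length is least certain for short features such as ND3 and ND4L. How fragments of neighbouring genes were assigned is not given. Whether the low values of ND3 and ND4L reflect that or the RNA level was not tested. Strand use in counting is not given either, so the ND6 values may include fragments of the opposite strand. The libraries were made from poly-A RNA, and the part of this in the ND6 values was not tested.

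**Figure D1:**
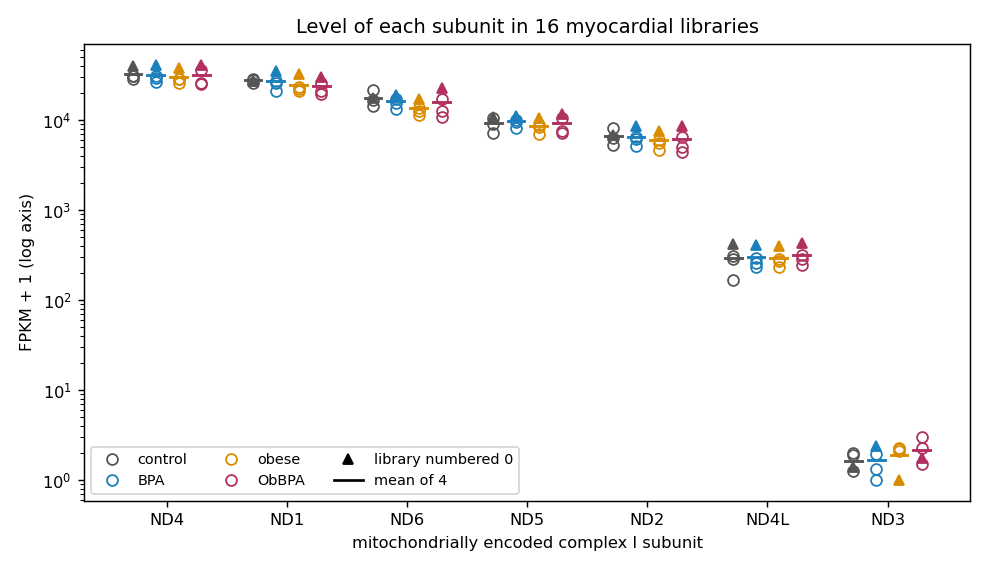
FPKM + 1 on a log axis of the 7 subunits (horizontal axis) in 16 libraries, with 1 symbol per animal, colours for the 4 groups, filled triangles for libraries numbered 0 and bars for group means. The 5 upper subunits sit between 4349 and 40895 FPKM, ND4L between 165 and 430 and ND3 between 0 and 2.04.

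The order of the levels within a library was the same in 15 of 16 libraries: ND4, ND1, ND6, ND5, ND2, ND4L, ND3. Control library 1 was the exception, with ND1 at 28706 just above ND4 at 28677, and ND2 at 8172 above ND5 at 7090. ND6 was above ND5 and ND5 above ND4L in all 16 libraries. The closest neighbours were ND4 and ND1, with a mean log2 ratio of ND1 to ND4 of -0.29 ± 0.14 (SD, n = 16, on FPKM + 1). Next came ND2 and ND5, with a mean log2 ratio of ND2 to ND5 of -0.56 ± 0.24. In both pairs control library 1 alone crossed 0. Without that library the ratio of ND1 to ND4 stayed between -0.55 and -0.15, and that of ND2 to ND5 between -0.80 and -0.37.

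ND3, a small core subunit, was listed near the limit of detection, which need not mean that its RNA was nearly absent. Its FPKM values in libraries 0 to 3 were 0.389, 1.00, 0.900 and 0.270 in control and 1.37, 0.338, 0 and 0.926 in BPA hearts. They were 0, 1.22, 1.08 and 1.26 in obese and 0.742, 0.499, 2.04 and 1.25 in ObBPA hearts. All groups overlapped, and BPA library 2 and obese library 0 were listed at 0. The low values come in whole steps. The relative depth of the 12 libraries numbered 1 to 3 was read from features under 1 FPKM, and ran from 0.539 to 1.75 of control library 3. The ND3 value of control library 3 was taken as 1 step, and BPA library 2 is at 0, which leaves 10 libraries that can depart from whole steps. After correction for depth, the ND3 values of all 10 were whole multiples of the step within 0.02. The steps were 2, 3 and 1 in control, 1, 0 and 6 in BPA, 4, 5 and 4 in obese, and 2, 7 and 5 in ObBPA libraries 1 to 3. If 1 step is 1 fragment, each of these ND3 values rests on 7 fragments or fewer. Summed over the 3 libraries there were 6 steps for control, 7 for BPA, 13 for obese and 14 for ObBPA hearts, at summed relative depths of 2.44, 3.20, 2.997 and 3.09. In BPA library 2, a count of 0 allows up to 3 steps, or 1.25 FPKM, by counting error alone. The libraries numbered 0 could not be placed on this scale, and the absolute depth is unknown.

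**Figure D2:**
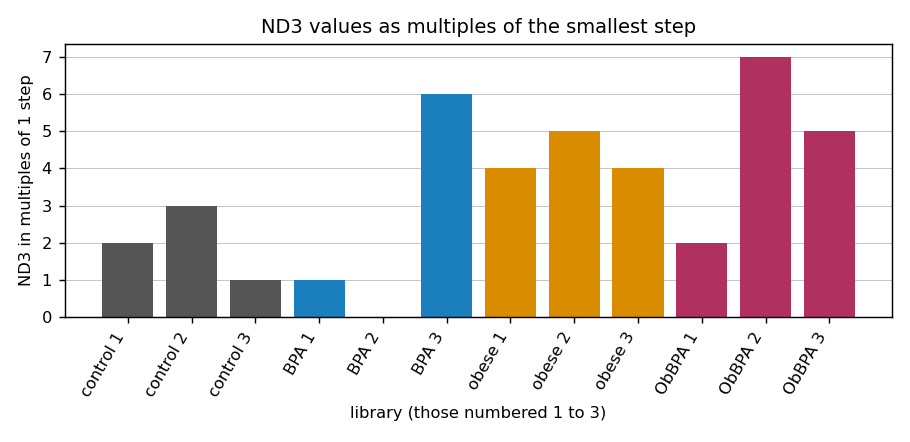
ND3 in the 12 libraries numbered 1 to 3 (horizontal axis, coloured by group), as multiples of the step set by control library 3, after correction for relative depth (vertical axis). Bars end on whole numbers from 0 to 7, and BPA library 2 is at 0.

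ND4L, the small subunit that shares a message with ND4, was the lowest of the other 6. Its FPKM in libraries 0 to 3 was 415, 165, 287 and 303 in control and 406, 254, 232 and 294 in BPA hearts. It was 392, 229, 273 and 285 in obese and 430, 280, 316 and 244 in ObBPA hearts. The library numbered 0 was the highest in each group, and control library 1 was the lowest of all 16. The mean was 292 ± 103 for control and 296 ± 77.7 for BPA hearts, and 295 ± 69.6 for obese and 318 ± 80.7 for ObBPA hearts (SD, n = 4).

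ND4, one of the proton-pumping subunits, was the most abundant on average. Its FPKM was 39696, 28677, 31012 and 30473 in control and 40895, 29132, 26376 and 30685 in BPA libraries 0 to 3. It was 37301, 25628, 28205 and 28286 in obese and 40747, 25949, 35326 and 24942 in ObBPA libraries 0 to 3. As with ND4L, the library numbered 0 was the highest of every group, and the groups overlapped. ND5, the largest of the pumping subunits, ranged from 6976 in obese library 1 to 11536 in ObBPA library 0, also with the library numbered 0 highest in all 4 groups. Of all features tested, 2.32% had the library numbered 0 highest in all 4 groups. ND2, the third pumping subunit, ranged from 4349 in ObBPA library 1 to 8509 in ObBPA library 0.

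ND1, which helps form the quinone channel, had FPKM values of 27055, 28706, 27911 and 25829 in control and 34579, 25538, 20868 and 26850 in BPA libraries 0 to 3. It had 31975, 22001, 20833 and 23412 in obese and 29962, 19323, 25834 and 20983 in ObBPA libraries 0 to 3. The coefficient of variation was 4.50% in control hearts and 20.1% to 21.1% in the other groups. Without the libraries numbered 0 it was 5.41% for control and 12.9% for BPA hearts, and 5.85% for obese and 15.3% for ObBPA hearts (n = 3), so the spread of the obese group came mostly from 1 library. Differences in spread were not tested. In the 3 other groups the library numbered 0 was the highest.

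On the log2 scale of FPKM + 1, the largest difference in any subunit other than ND3 was between libraries of different number. The comparison was made because earlier results of these data had shown that the libraries numbered 0 differ from the others. Its p-values are thus not those of a comparison chosen beforehand. With the group as a term, ND4L was higher in the 4 libraries numbered 0 than in the other 12 by 0.66 ± 0.14 on the log2 scale (SE; adjusted p = 0.00490 by limma). ND4 was higher by 0.47 ± 0.10 (adjusted p = 0.00476 by limma). For both genes all 4 libraries numbered 0 lay above all 12 others, with 392 to 430 FPKM against 165 to 316 for ND4L and 37301 to 40895 against 24942 to 35326 for ND4. The library numbered 0 was the highest in all 4 groups for 2.32% of the features tested. At most that share can show such a separation, and the exact share was not counted. ND2, ND1 and ND5 were higher by 0.46 ± 0.14, 0.37 ± 0.11 and 0.37 ± 0.12 (SE; adjusted p = 0.0320, 0.0326 and 0.0438 by limma), with overlapping libraries. ND6 differed by 0.40 ± 0.15 and missed the threshold (adjusted p = 0.0683 by limma), and ND3 by -0.23 ± 0.26 (adjusted p = 0.552 by limma).

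In all, 5 of the 7 subunits were called higher and 0 lower, at an adjusted p of at most 0.05 by limma, where 23.8% of the features tested were called in either direction and 2.6% were called higher. At an unadjusted p under 0.05 it was 6 of 7, against 37.9% of the features. The median log2 difference was 0.40 over the 7 subunits and -0.15 over all features, so relative to all features the subunits lay further up than their values show. After scaling each library to the median of ratios, that median over all features was -0.0017, the subunits' median was 0.58, and 6 of 7 were called, ND6 included. Of the 25 other mitochondrial identifiers tested, 2 were called higher and 0 lower, with a median of 0.27. The count of 5 was 2 without BPA library 0, without obese library 0 or without ObBPA library 0, and 3 without obese library 1 or 2 or without ObBPA library 1. With no filter on low values it was 1, ND4L. The 23.8% and 2.6% belong to the fit reported first, and the shares of all features called in these alternatives are not given here. What the library number stands for was not tested. Each treatment group held 1 such library.

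**Figure D3:**
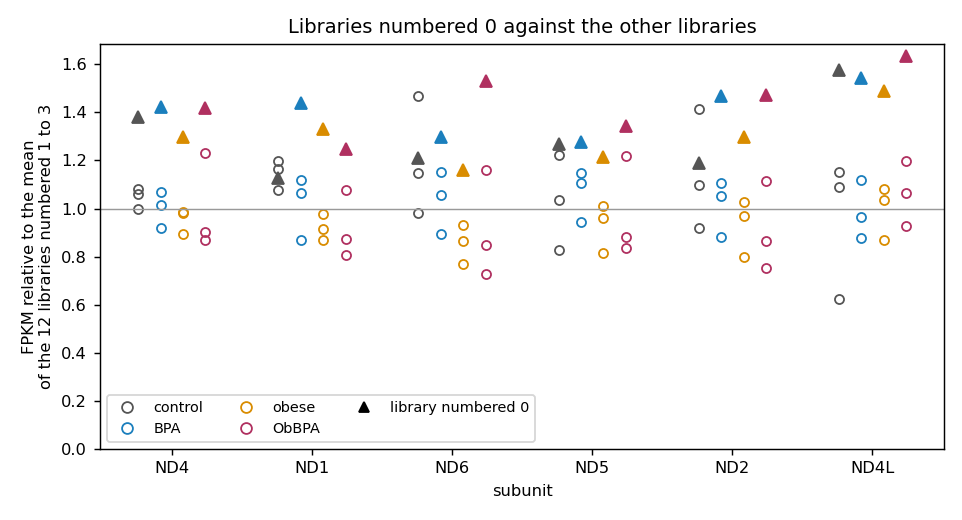
FPKM of 6 subunits (horizontal axis) relative to each subunit's mean over the 12 libraries numbered 1 to 3 (vertical axis), with filled triangles for libraries numbered 0, open circles for the others and colours for the groups. For ND4L and ND4 all 4 triangles lie above all circles, and for the other 4 subunits they overlap.

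Prenatal BPA under the control diet left no subunit past the threshold. Group means of ND4 were 31772 ± 6338 in BPA and 32465 ± 4924 in control hearts (SD, n = 4). On the log2 scale they differed by -0.04 ± 0.19 (SE). ND6 had the largest difference of the 7, -0.12 ± 0.22, which was -0.20 with the libraries numbered 0 left out and -0.023 without control library 1. Among the 7, 2 differences were above 0 and 5 below, with a median of -0.039 against -0.00011 over all features. That direction was not stable. The median was -0.16 with the libraries numbered 0 left out, -0.023 without control library 1, -0.17 with all 7 below 0 without BPA library 0, and 0.071 with 6 above 0 without BPA library 2. It was 0.044 with 6 above 0 when libraries were scaled on features outside the mitochondrial genome. ND4L went from 0.06 to -0.19 without control library 1. The limma fit called 0 of 7, against 0% of all features. An unadjusted p under 0.05 was seen for 0 of 7, against 2.45%. In overfed animals, ObBPA against obese, the ND4 means were 31741 ± 7610 and 29855 ± 5115 (SD, n = 4). They differed by 0.07 ± 0.19 on the log2 scale (SE). Of the 7 differences 6 were above 0, with a median of 0.083 against 0.013 over all features. With the libraries numbered 0 left out the median was 0.054. Single libraries turned its sign: it was -0.053 without ObBPA library 0 and -0.0093 without obese library 1, and it was 0.18 without ObBPA library 3 or without obese library 0. None of the 7 was called by limma, and none had an unadjusted p under 0.05, against 1.96% of the features.

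Overfeeding without prenatal BPA gave the largest of the 30 differences between groups in the 6 subunits other than ND3, in ND6. It did not pass the test. Its FPKM was 17679, 21482, 16761 and 14331 in control and 16953, 11221, 13589 and 12649 in obese libraries 0 to 3. The groups overlapped: obese library 0 was above control libraries 2 and 3. The log2 difference was -0.37 ± 0.22 (SE), with an unadjusted p of 0.115 and an adjusted p of 0.834 by limma, and it was -0.27 without control library 1. It was -0.47 with the libraries numbered 0 left out, with an unadjusted p of 0.0484 by limma, where 7.72% of the features had one under 0.05, and an adjusted p of 0.577. It was -0.48 without obese library 0. The adjusted p ranged from 0.491 to 1 over the alternatives of this difference. Of the 7 subunits 5 were lower in the obese group, with a median of -0.12 against -0.0098 over all features, and the 25 other mitochondrial identifiers had a median of -0.16. The limma fit called 0 of 7 here, and at an unadjusted p under 0.05 it was 0 of 7, against 4.45% of the features. When each library was scaled on the features outside the mitochondrial genome, the subunits' median was 0.023 and that of all features 0.11.

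After prenatal BPA, ObBPA against BPA, limma called 0 of 7 subunits, and at an unadjusted p under 0.05 it was 0 of 7, against 1.67% of the features. ND6 was 18953, 16827, 13096 and 15448 in BPA and 22377, 12407, 16950 and 10648 in ObBPA libraries 0 to 3, and these groups overlapped throughout. Its log2 difference was -0.09 ± 0.22 (SE). ND3 had 0.39 ± 0.32, at the few steps given above. With the libraries numbered 0 left out, ND3 had 0.67 with an unadjusted p of 0.0479 and an adjusted p of 1 by limma, where 3.03% of the features had an unadjusted p under 0.05. In ObBPA against control, limma called 0 of 7, and at an unadjusted p under 0.05 it was again 0, against 3.54%. There the differences ran from -0.22 ± 0.22 for ND6 to 0.35 ± 0.32 for ND3 (SE). With library weights ND3 had an unadjusted p of 0.0446 by limma, where 9.23% of the features had one under 0.05. ND6 had -0.40 with the libraries numbered 0 left out and -0.11 without control library 1.

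Averaged over both diets, the prenatal BPA effect on the 7 subunits had a median log2 difference of 0.016, against 0.0089 over all features. The overfeeding effect averaged over both prenatal treatments had a median of -0.10, against 0.00036. Neither gave a call among the 7 by limma or an unadjusted p under 0.05, where 1.69% and 2.96% of the features had one. With the libraries numbered 0 left out, ND3 (0.52) and ND6 (-0.34) had an unadjusted p under 0.05 for overfeeding, where 5.32% of the features had one in the same fit. Their adjusted p was 0.754 by limma. With library weights ND3 had an unadjusted p of 0.0134 by limma, where 8.94% of the features had one under 0.05. Without ObBPA library 0, ND6 had -0.33 with an unadjusted p of 0.0346 and an adjusted p of 0.989 by limma. The share of all features with an unadjusted p under 0.05 in that fit is not given here. Outside the overfed groups ND3 reached 1 FPKM only in control library 1 and BPA library 0. It thus passed the filter only through overfed animals, and its p-values for overfeeding are no support. With the libraries numbered 0 left out, the median for prenatal BPA was -0.064, and it was 0.0046 without control library 1. The interaction, which asks whether the BPA effect differed between diets, ran from 0.01 ± 0.26 for ND1 to 0.28 ± 0.31 for ND6 (SE). All 7 values were above 0, as were 6991 of the 13251 features, and their median was 0.056 against 0.014. The median was -0.079 with scaling on features outside the mitochondrial genome, -0.089 without ObBPA library 0, -0.048 without BPA library 2 and -0.033 without obese library 1. It was 0.12 with the libraries numbered 0 left out and 0.16 without control library 1, and ND1 changed sign in 11 of 29 alternatives. None passed by limma, and 0 of 7 had an unadjusted p under 0.05, against 2.72%.

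These group comparisons give a range for the changes in the 6 subunits other than ND3. The intervals are for each difference alone and for the values as deposited, and a joint range was not tested. Over the 5 differences between groups, the 95% intervals by limma all lay between -0.84 and 0.74 on the log2 scale, that is between 0.558-fold and 1.67-fold. All 30 of them were within a 2-fold change in either direction.

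**Figure D4:**
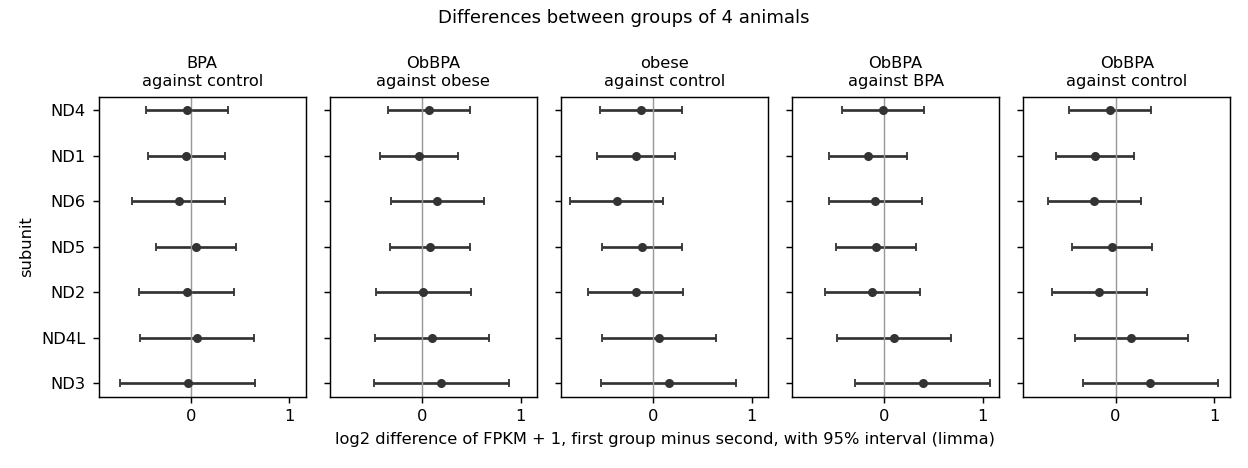
Log2 differences (horizontal axis, first group minus second) of the 7 subunits (vertical axis) in the 5 comparisons between groups of 4 animals, with 95% intervals from limma. All 35 intervals include 0, and ND6 in obese against control, at -0.37, is the farthest from 0 among the 6 abundant subunits.

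Ratios between subunits within a library do not depend on the scaling between libraries. The ratio of ND6 to ND5, neighbours on opposite strands, was 1.49 to 1.94 in 15 libraries and 3.03 in control library 1. Since fragments of ND6 and of the opposite strand cannot be told apart, this ratio need not be that of the ND6 and ND5 messages. On the log2 scale its SD was 0.24 over 16 libraries and 0.087 over 15 without control library 1, against 0.25 for ND5 and 0.31 for ND6 over 16. The ratio of ND4L to ND4, neighbours on 1 strand, was 0.872% to 1.08% in 15 libraries and 0.574% in control library 1. A shared messenger RNA would give similar levels per length, so this ratio of FPKM need not be a ratio of RNA levels. How fragments were assigned to ND4L and ND4 was not tested. Its SD on the log2 scale was 0.21 over 16 libraries and 0.10 over 15, against 0.37 for ND4L and 0.25 for ND4 over 16. In control library 1, ND1, ND2 and ND6 were the highest of the 12 libraries numbered 1 to 3, ND4L was the lowest and ND5 the lowest but for obese library 1.

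The 2 ratios were compared in 5 pairs of groups each, with an exact permutation test and p-values adjusted over these 10 tests. The mean log2 ratio of ND6 to ND5 was 0.92 ± 0.46 in control and 0.74 ± 0.050 in BPA hearts, and 0.66 ± 0.038 for obese and 0.73 ± 0.16 for ObBPA animals (SD, n = 4). Control without library 1 had 0.69 ± 0.012 (SD, n = 3). For ND4L to ND4 the means were -6.85 ± 0.40, -6.75 ± 0.093, -6.67 ± 0.10 and -6.64 ± 0.12 in the same order (SD, n = 4), and -6.66 ± 0.089 in control without library 1 (SD, n = 3). The smallest exact permutation p was 0.171, for ND4L to ND4 in ObBPA against BPA, where 0.0286 is the smallest that 4 against 4 can give, and every adjusted p was 0.971. The largest difference, -0.25 in ND6 to ND5 for obese against control, was -0.024 without control library 1. In BPA against control both ratios changed sign without that library, from -0.18 to 0.051 for ND6 to ND5 and from 0.10 to -0.095 for ND4L to ND4.

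**Figure D5:**
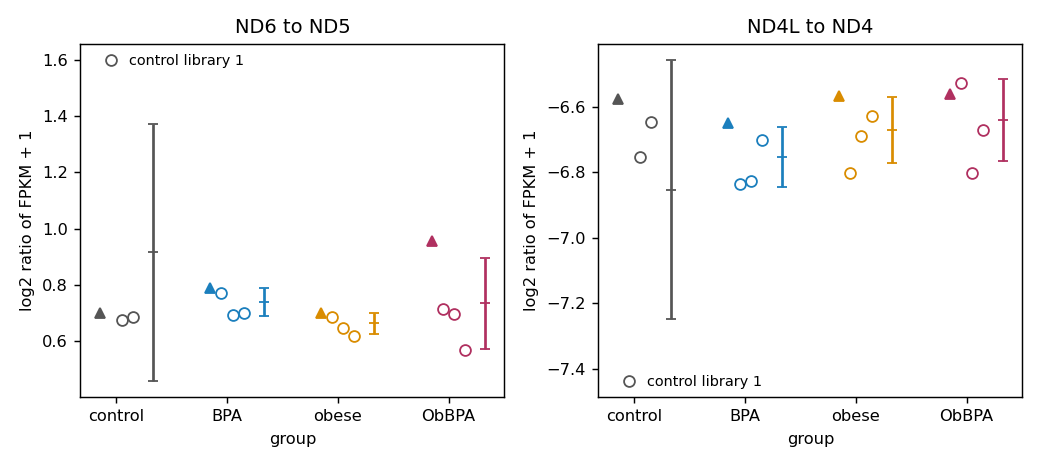
Log2 ratio of ND6 to ND5 (left) and of ND4L to ND4 (right) in each library (symbols, filled triangles for libraries numbered 0) by group, with mean and SD beside them. The vertical axes do not start at 0, and control library 1, at 1.60 and -7.44, lies apart from the other 15 libraries in both panels.

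Likeness to other features was measured as the root mean square difference of log2(FPKM + 1) from its own mean over the 16 libraries. Among the 7 subunits, ND4 was nearest to the mean profile of the 6 without ND3, which it is part of, at 0.052, and ND3 was the farthest at 0.51. Of 13244 other features, the nearest to the mean profile of all 7 was the mitochondrial ENSOARG00000000016, at 0.084, where the profile itself had a root mean square of 0.21. The 10 nearest held 3 mitochondrial identifiers, of 25 tested. The nearest feature outside the mitochondrial genome was ENSOARG00000013326, at 0.13. These features share the libraries and their scaling, so the values are a description.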

How the data were processed

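Myocardial poly-A RNA of 16 sheep was sequenced after TruSeq library preparation, per the labels' protocols. The authors deposited FPKM values, with 1 column per animal. The submitters' processing notes name FastQC, TopHat2 2.0.9, Bowtie2 2.1.0, Cufflinks, Cuffdiff 2.1.1 and build Oar_v3.1, without order or settings. Counting rules and strand handling are not given in the sources used here.

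FPKM are not counts, so log2(FPKM + 1) was fitted with limma 3.58.1 (R 4.3.3) with a trended prior variance, over the group means of all 16 libraries. The fit used the 13251 of 27054 features with FPKM of at least 1 in at least 4 libraries. All 7 subunits passed, ND3 only through its values in overfed animals. Adjusted p-values are Benjamini-Hochberg values over those features for each comparison, two-sided, with a threshold of 0.05. Differences are on the FPKM + 1 scale, which understates changes of ND3. The comparison by library number added the group as a term. Ratios of 2 subunits were tested with an exact two-sided permutation test. The rest was computed in Python 3.11.15 with scipy 1.17.1 and pandas 2.3.3. The procedures were tested on simulated data.

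Of the 27054 identifiers, 0 matched the gene table at hand (ARS-UI_Ramb_v3.0), so nuclear complex I genes and cell type markers were not analysed here. All 7 subunits are named by rule. The members, lists and tests were chosen with earlier results of these data known. No 2 libraries held identical values. The labels say that animals were separate. The limma p-values set each difference against the spread between animals within the groups. The permutation p-values set it against the regroupings of the same libraries. Alternatives changed the pseudocount, filter, scaling, variance model, weights, libraries fitted and block. One, leaving out control library 1 together with the libraries numbered 0, was chosen after seeing the data.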

Additional observations from a re-analysis of the deposited data

Results flagged for a closer look

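In 36 groups of 4 libraries (7 subunits and 2 ratios in 4 groups), 2 held a library far from the other 3, by a rule that flags about 1 in 20 groups by chance. The log2 ratio of ND6 to ND5 was 1.60 in control library 1, against 0.68 to 0.70 in the other control libraries. ND3 was listed at 0 in obese library 0, against 1.08 to 1.26 FPKM in the other obese libraries. That library belongs to those numbered 0, whose ND3 values could not be put on the scale of steps.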

How the results depend on the processing

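No subunit was called in any of the 8 treatment comparisons under any of 29 or 30 alternatives per comparison, which gave 1651 values by limma with a smallest adjusted p of 0.404. Of these values 152 had the opposite sign to the reported difference, in 40 of 56 differences, the largest of which was 0.23 in size. For the libraries numbered 0, 5 subunits were called. The count was 1 with no filter on low values and 2 to 6 without 1 library. The shares of all features called in these alternatives are not given here. Over 25 alternatives ND4L was called in 25, ND4 in 24, ND2 in 21, ND1 in 18, ND5 in 12 and ND6 in 5. ND3 was called in 0 of 24, and its sign changed once.

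Of 116 alternative ratio tests 106 could not pass, since the smallest exact permutation p their design allows is 0.0571 to 0.2, so they say nothing of stability. In the other 10, without the pseudocount, the smallest exact permutation p was 0.171. Without 1 library, the difference in the log2 ratio of ND6 to ND5 ran from -0.26 to 0.051 for BPA against control, from -0.0028 to 0.13 for ObBPA against obese, from -0.078 to 0.050 for ObBPA against BPA and from -0.26 to 0.046 for ObBPA against control. That of ND4L to ND4 ran from -0.095 to 0.19 for BPA against control, from -0.013 to 0.085 for ObBPA against obese and from -0.013 to 0.27 for obese against control. Without control library 1 and the libraries numbered 0, ND6 to ND5 was 0.040 and ND4L to ND4 was -0.088 for BPA against control, and ND4L to ND4 was -0.0065 for obese against control. The cause of these moves was not tested beyond leaving out the libraries.

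Same-numbered libraries deviated from their group means with correlations of -0.084 to 0.16, 1 of 24 over 0.1, and 7 of 16 libraries correlated best with their own number. Pairs numbered 0 all correlated above 0, at 0.047 to 0.16, and those libraries share the shift described in the report. The cut of 0.1 has no formal basis, and correlations of libraries of different number are not given here for comparison. These values therefore cannot decide whether the numbers pair the animals. No label says what a number marks, and the numbers were not taken as pairing the animals. With the replicate block, 0 subunits were called in each treatment comparison, and ND6 in obese against control had a log2 difference of -0.37 with an adjusted p of 0.621 by limma. Absolute depth is unknown, and FPKM give no counting interval.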
